A study of Mus musculus with 12 samples.

Results

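The mammalian circadian clock was described at the level of mRNA in skin, through 10 genes chosen by name: the activators Arntl and Clock, the repressors Per1, Per2, Per3, Cry1 and Cry2, the nuclear receptors Nr1d1 and Nr1d2, and the output factor Dbp. All 10 were found by their symbols among the 23282 entries of the deposited counts, and all 10 passed the filter on low counts that left 14163 genes for testing. The mice were male C57BL/6J of wild-type genotype, bought at 5 weeks of age. In both groups lesions resembling atopic dermatitis (AD) were raised on the back with the contact sensitizer 2,4-dinitrochlorobenzene (DNCB) at 0.5%, painted 3 times a week for 6 weeks. The 5 AD mice ate a standard chow, and the 7 HF + AD mice, named AD+OB in the labels, ate a high-fat diet for 10 weeks, of which 4 came before the first DNCB. All were fasted for 12 h before tissue was taken. The labels and the study's methods give no clock time of sampling, so that a difference in the time of day between the groups cannot be told apart from the diet in any value below.

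In the clock, the proteins of Arntl (also called Bmal1) and Clock bind E-boxes together and switch on the Per and Cry genes, whose proteins return to the nucleus and repress that same pair. A further loop runs through the REV-ERB receptors encoded by Nr1d1 and Nr1d2, which repress Arntl through sites shared with the activating ROR receptors. Dbp, with its relatives Tef and Hlf, carries the rhythm to D-boxes of other genes, Per3 among them, where Nfil3 opposes it. In skin the clock is known to time cell division in the epidermis and steps of the hair cycle.

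Each mouse gave 1 library, prepared from the 3′ ends of mRNA (QuantSeq). Total counts lay between 9746937 and 11688979 in the AD mice and between 10726845 and 13462434 in the HF + AD mice. Genes with at least 1 read numbered 13100 to 15063 in AD and 15522 to 16677 in HF + AD, without overlap between the groups. A count of 0 allows up to 3 counts, or 0.223 to 0.308 CPM (counts scaled to a total of 1000000), for counting error only. Levels are given as CPM with totals scaled by TMM, a factor for composition that lay between 0.944 and 1.04. The labels name no batch, and the tests measure the spread between these 12 mice.

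The sequences before 3 of the start sites are shown first, because Nr1d2 was the member called between the groups and Per3 and Cry1 were the members with the next largest differences. They are the 250 bases before the RefSeq start on GRCm38.p6, all 3 on the minus strand, at chr14:18239107-18239356 for Nr1d2, chr4:151044666-151044915 for Per3 and chr10:85185055-85185304 for Cry1. Capitals mark matches to the E-box CACGTG or to the D-box, searched as TTATGTAA and TTACGTAA.
Nr1d2: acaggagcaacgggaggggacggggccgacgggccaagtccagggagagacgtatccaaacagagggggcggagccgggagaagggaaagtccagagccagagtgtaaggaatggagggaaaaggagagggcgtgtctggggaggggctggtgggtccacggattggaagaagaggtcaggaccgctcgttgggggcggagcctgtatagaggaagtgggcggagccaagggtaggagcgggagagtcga
Per3: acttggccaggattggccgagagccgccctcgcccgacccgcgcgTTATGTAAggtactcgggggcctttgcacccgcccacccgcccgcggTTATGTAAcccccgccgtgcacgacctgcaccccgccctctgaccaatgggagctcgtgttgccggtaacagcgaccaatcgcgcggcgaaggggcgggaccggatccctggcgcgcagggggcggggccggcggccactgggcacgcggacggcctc
Cry1: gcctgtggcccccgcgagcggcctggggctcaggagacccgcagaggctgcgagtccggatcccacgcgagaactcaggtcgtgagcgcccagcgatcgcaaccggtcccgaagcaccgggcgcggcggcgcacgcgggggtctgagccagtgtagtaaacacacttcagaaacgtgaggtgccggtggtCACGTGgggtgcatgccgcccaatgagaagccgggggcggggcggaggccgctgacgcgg

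Windows of 250 bases before and 50 after a start were at hand for 9 of the 10 members, 13 windows in all, and were read on both strands. The Per3 window held 2 copies of TTATGTAA, starting at -205 and -158 from the start site, and was the only member window with a D-box, which 1.06% of all 32851 windows held. An E-box stood at -60 in Cry1 and at -166 before a Per1 start, and 7.15% of all windows held one. Another Per1 window held no match. The core of the ROR and REV-ERB element, searched as TAGGTCA, was found at position 31 after an Arntl start and in 2.61% of all windows. These searched letters do not overlap each other. No match to any of the 3 motifs was found in the Nr1d2 window. A match is a description of letters and not a bound site.

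**Figure D1:**
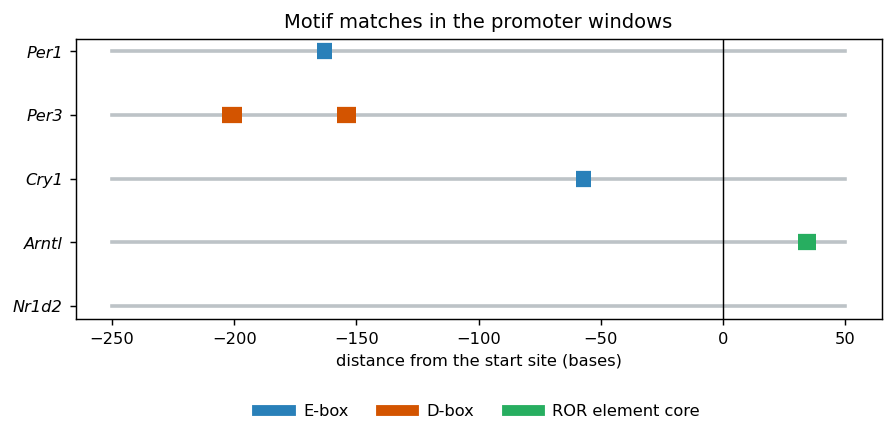
Position of motif matches (coloured bars) in the windows of 5 members, in bases from the start site. Per3 carries 2 D-boxes upstream, and Cry1 and a window of Per1 carry an E-box each. A window of Arntl carries the core of a ROR element after the start, and Nr1d2 none of these letters.

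The question put to the counts was whether clock transcripts differed in skin between AD mice on chow and AD mice on the high-fat diet. Of the 10 members, 1 fell and 0 rose in HF + AD: Nr1d2 was lower at an adjusted p of 0.0113, while Arntl, Clock, the PER and CRY genes, Nr1d1 and Dbp did not pass the edgeR quasi-likelihood test. Over all 14163 genes tested, 4.77% were called lower and 4.43% higher at an adjusted p under 0.05, or 9.2% in either direction, so that 1 call among 10 members lay near the background. Counted at an unadjusted p under 0.05, 0 members were higher and 2 were lower, Nr1d2 and Per3, against 25.1% of all genes in either direction. The log2 fold change of HF + AD over AD was below 0 for 9 members and above 0 for 1, with a median of -0.24 beside a median of 0.02 over all genes tested. In a bulk sample, fewer cells of a type and less RNA per cell cannot be told apart.

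Nr1d2 encodes REV-ERBβ, the receptor that shares the repression of Arntl with REV-ERBα. The gene lies on chromosome 14 (GRCm38, 18204054 to 18239127, minus strand). Its level was 75.4, 175, 115, 108 and 121 CPM in AD mice 1 to 5. In the HF + AD mice the lowest level was 33.8, the median 66.9 and the highest 70.7 CPM. All 7 HF + AD mice lay below the lowest AD mouse. Groups were apart in this way, in either direction, for 5.45% of all genes tested. The log2 fold change was -1.03 with an SE of 0.22 and a 95% interval from -1.49 to -0.56, or a level 0.491 times that of AD (edgeR adjusted p = 0.0113). The two-sided exact permutation test of log2(CPM + 1) gave p = 0.00126, the lower bound set by 792 possible splits. Of all genes tested, 2.8% had a fold change as low. Counts were 436 or more in each library, and the fall did not rest on a single mouse: it stayed called when each mouse was left out in turn, with log2 fold changes between -1.15 and -0.85. Other than with the replicate number as a block, it was called in 21 of 21 alternatives of scaling, filter, test, weights, GC content and mice, with adjusted p from 0.000453 to 0.0364 (edgeR, limma and DESeq2). With the block it was not called (edgeR adjusted p = 0.0514). The counts of alternatives given for the other genes likewise leave out the block.

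Nr1d1, the gene of REV-ERBα on chromosome 11 (98767932 to 98775333, minus strand), did not pass the test, and its difference from Nr1d2 was not tested. The AD mice held 4.71, 9.94, 5.95, 7.87 and 9.13 CPM, and the HF + AD mice ran from 1.78 over a median of 6.27 to 12.1 CPM. The HF + AD group spread wider than the AD group and covered it on both sides. Its log2 fold change was -0.05 (SE 0.44, 95% interval from -0.97 to 0.87, edgeR adjusted p = 0.966). The 3′ end of Nr1d1 overlaps that of Thra, a thyroid hormone receptor gene, on the other strand over 1075 bases, and whether counting used strand is not stated, so that reads of these genes may be mixed. Thra lay between 4.45 and 36.8 CPM in AD and between 20.6 and 32.8 CPM in HF + AD (edgeR adjusted p = 0.553).

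**Figure D2:**
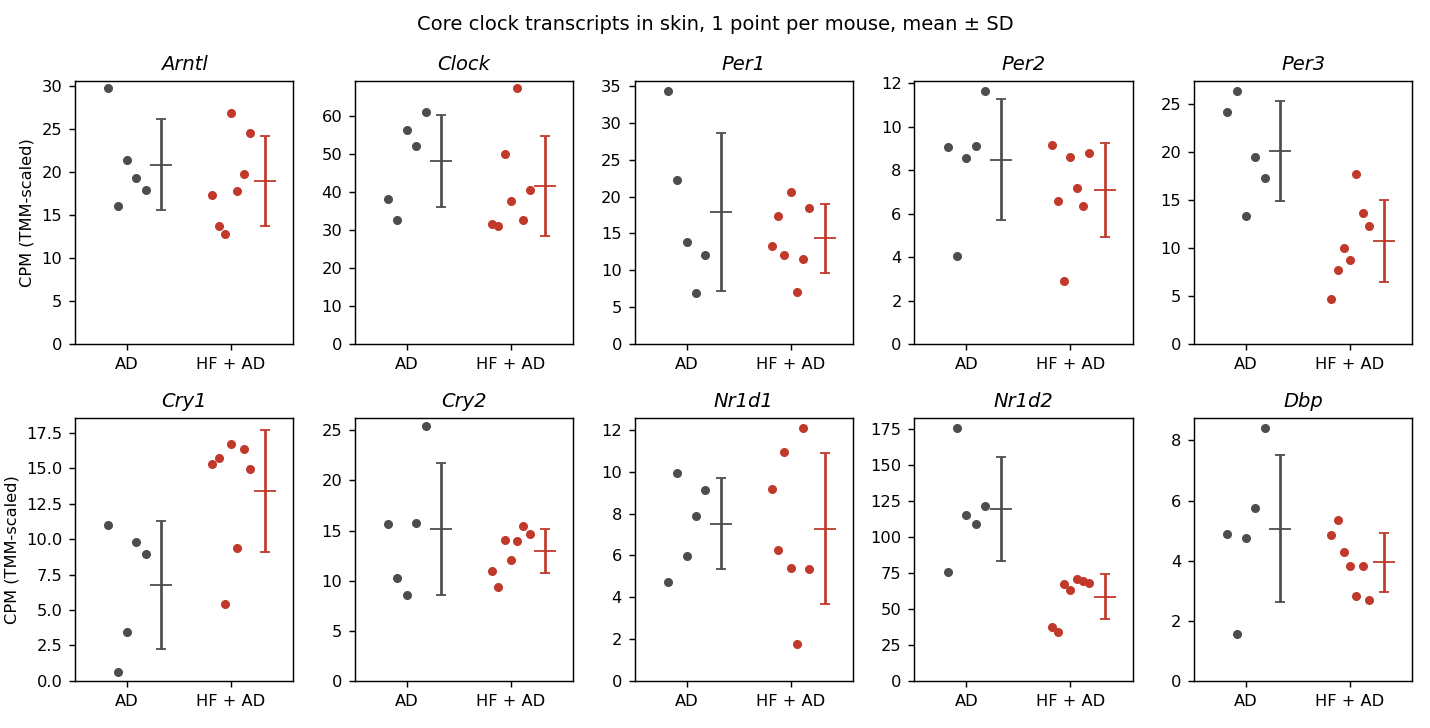
Level of each core clock transcript in CPM (vertical axis, from 0) in every AD mouse (grey, n = 5) and HF + AD mouse (red, n = 7), with the mean and SD beside the points. The groups separate fully for Nr1d2, and 5 of 7 HF + AD mice lie below the AD mice for Per3 and above them for Cry1.

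Among the PER repressors, Per3 was the lowest relative to AD, without passing the test over all genes. Per3 lies on chromosome 4 (151003652 to 151044665, minus strand). Its level was 24.1, 26.3, 13.3, 19.5 and 17.3 CPM in AD mice 1 to 5. In HF + AD it ran from 4.70 over a median of 9.999 to 17.7 CPM. The groups overlapped, with 5 of 7 HF + AD mice below all AD mice. The log2 fold change was -0.91 (SE 0.31, 95% interval from -1.56 to -0.26) at an edgeR adjusted p of 0.0737. The exact permutation test of this single gene gave an unadjusted p = 0.0126, two-sided, and stayed under 0.05 in 16 of 16 alternatives. Per3 was called in 2 of 21 alternatives of the fit over all genes, DESeq2's Wald test at 0.041 and the fit without HF + AD mouse 5 at 0.036, and adjusted p ranged from 0.036 to 0.234. The gene lies within the span of Camta1 on the same strand, with no exon shared, and Camta1 itself had a log2 fold change of -0.20 (edgeR adjusted p = 0.527).

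Per1 and Per2, period genes that light and hormones can induce, did not differ beyond the spread of the mice. Per1 held 34.3, 22.2, 13.8, 6.90 and 12.03 CPM in the AD mice and 7.02, 13.2 and 20.6 CPM as the lowest, median and highest of HF + AD. The HF + AD values lay within the AD range, which AD mouse 1 stretched upward. Its log2 fold change was -0.32 (SE 0.36, 95% interval from -1.07 to 0.44, edgeR adjusted p = 0.639), and it turned to 0.07 without AD mouse 1. Per2 held 9.07, 4.04, 8.58, 9.10 and 11.7 CPM in AD and ran from 2.90 over 7.21 to 9.16 CPM in HF + AD. The groups overlapped except for 1 HF + AD mouse below all AD mice, and the log2 fold change was -0.26 (SE 0.38, 95% interval from -1.06 to 0.53, edgeR adjusted p = 0.723).

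Cry1, a cryptochrome that represses the activator pair, was the member whose level was higher in HF + AD on average, without passing the test over all genes. Cry1 lies on chromosome 10 (85131700 to 85185064, minus strand). The AD mice held 10.97, 0.621, 3.43, 9.81 and 8.95 CPM. The HF + AD mice ran from 5.43 over a median of 15.3 to 16.7 CPM. In HF + AD, 5 of 7 mice lay above all AD mice, while AD mouse 2 stood lowest with 6 reads. The log2 fold change was 0.98 (SE 0.51, 95% interval from -0.08 to 2.05) at an edgeR adjusted p of 0.237. The exact permutation test gave an unadjusted p = 0.0404, two-sided. Over 16 alternatives p ran from 0.00649 to 0.109, under 0.05 in 8, with the highest without AD mouse 2. Without that mouse the log2 fold change was 0.69.

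Cry2, the other cryptochrome, did not pass either. Its level was 15.7, 10.2, 8.58, 15.7 and 25.4 CPM in AD and 9.37, 14.0 and 15.4 CPM as the lowest, median and highest of HF + AD, all within the AD range. The log2 fold change was -0.23 (SE 0.29, 95% interval from -0.83 to 0.38, edgeR adjusted p = 0.679), and without AD mouse 5 it was 0.05. A noncoding transcript, D930015M05Rik, crosses Cry2 on the other strand but not at its 3′ end.

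The activators were close in level between the groups. Arntl held 29.7, 16.0, 21.4, 19.3 and 17.9 CPM in AD mice 1 to 5 and 12.8, 17.8 and 26.9 CPM as the lowest, median and highest of HF + AD. The ranges overlapped over most of their width, with 2 HF + AD mice below all AD mice. Its log2 fold change was -0.14 (SE 0.24, 95% interval from -0.65 to 0.38, edgeR adjusted p = 0.776), which turned to 0.03 without AD mouse 1. Clock held 38.0, 32.7, 56.2, 52.1 and 61.0 CPM in AD and ran from 31.0 over 37.5 to 67.1 CPM in HF + AD. Here 3 HF + AD mice lay below and 1 above all AD mice, and the log2 fold change was -0.21 (SE 0.22, 95% interval from -0.68 to 0.25, edgeR adjusted p = 0.605).

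Dbp, the albumin D-box factor whose transcript follows the activator pair closely in many tissues, did not differ beyond the spread of the mice. It held 4.89, 1.55, 4.74, 5.75 and 8.41 CPM in the AD mice, and 2.70, 3.83 and 5.34 CPM were the lowest, median and highest of HF + AD. All HF + AD mice lay within the AD range. The log2 fold change was -0.36 (SE 0.48, 95% interval from -1.38 to 0.66, edgeR adjusted p = 0.700). Counts were 15 to 93 per library. Without AD mouse 2 the exact permutation p moved from 0.501 to 0.0242, the lowest of its 16 alternatives, whose highest was 0.954. The 3′ end of Dbp overlaps that of Sphk2 on the other strand over 737 bases, and Sphk2 lay between 62.1 and 99.5 CPM in AD and between 68.4 and 94.3 CPM in HF + AD.

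**Figure D3:**
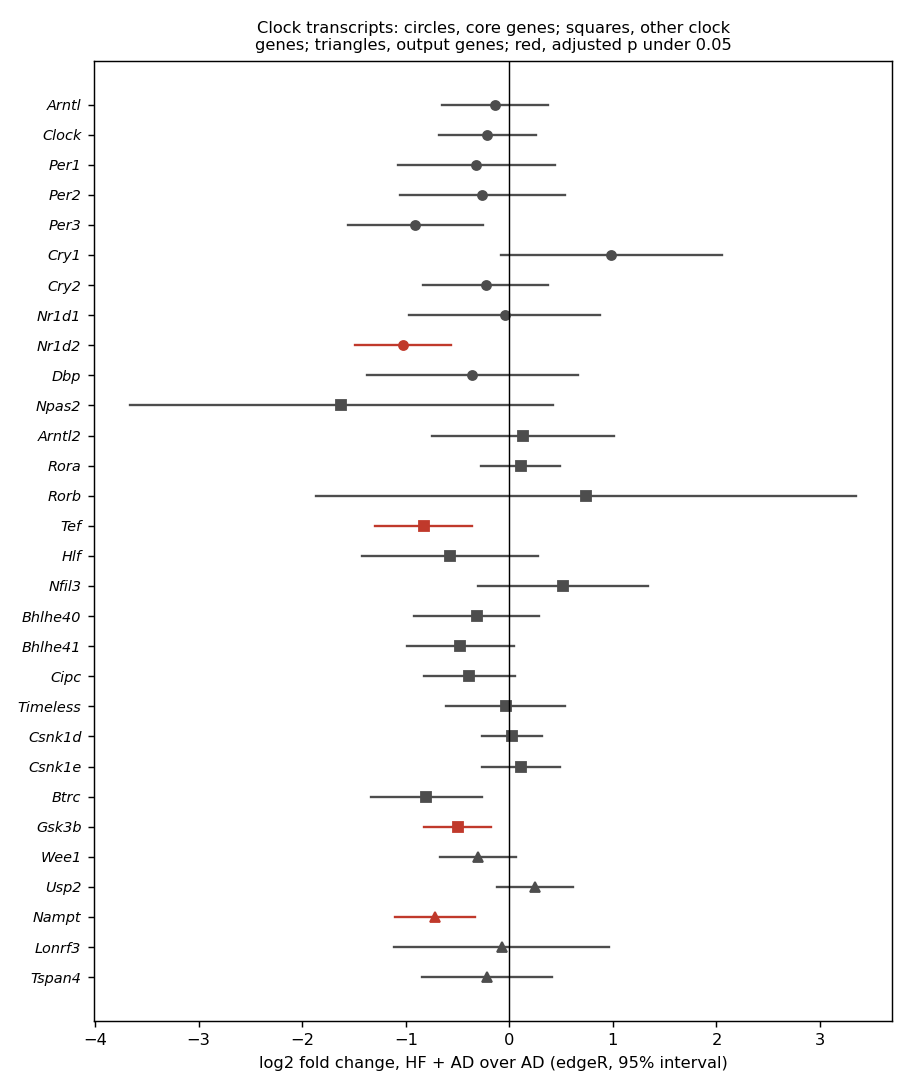
log2 fold change of HF + AD over AD (horizontal axis) with its 95% interval for the 10 core genes (circles), 15 other clock genes (squares) and 5 output genes (triangles). Red marks the 4 genes with an adjusted p under 0.05, Nr1d2, Tef, Gsk3b and Nampt, and all 4 lie below 0.

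Within a group, some mice were highest in some members and lowest in others, which was not tested. AD mouse 2 was the lowest of its group in 5 members, Arntl, Clock, Per2, Cry1 and Dbp, and the highest in 3, Per3, Nr1d1 and Nr1d2. This was also the library with the fewest counts and the fewest genes with reads of the 12. AD mouse 1 was the highest of its group in Arntl, Per1 and Cry1 and the lowest in Nr1d1 and Nr1d2. Among the HF + AD mice, mouse 4 was the highest in Arntl, Per1 and Cry1, and mouse 5 was the highest in Clock, Per3 and Nr1d2 while lowest in Per1 and Nr1d1.

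Ratios of transcripts within a mouse do not depend on the scaling of its library. The log2 ratio of Arntl counts to Dbp counts, genes that peak at opposite times of day in many tissues, was 2.20 ± 0.86 in AD (SD, n = 5) and 2.26 ± 0.68 in HF + AD (SD, n = 7). The difference of 0.06 was far smaller than either SD, and every HF + AD mouse lay within the AD range. The top of that range, 3.37, was AD mouse 2 with 15 Dbp reads, and the next AD mouse stood at 2.60. HF + AD mice 4, 5 and 7, at 2.81, 2.66 and 3.18, lay above that next mouse, and HF + AD mice 1, 2, 3 and 6 lay below it. For Arntl over Nr1d1 the ratio was 1.49 ± 0.78 and 1.55 ± 1.09, again with overlapping mice. Arntl over Per3 was 0.06 ± 0.51 in AD and 0.89 ± 0.67 in HF + AD, where 4 of 7 mice lay above all AD mice.

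A further 3 ratios were chosen after the values had been seen and have no test. Arntl over Nr1d2 was -2.50 ± 0.76 in AD and -1.62 ± 0.46 in HF + AD on the log2 scale, with overlap between the groups. Cry1 over Per3 was -2.09 ± 1.90 and 0.34 ± 0.98. All 7 HF + AD mice exceeded all AD mice in that ratio, but the highest AD mouse at -0.95 and the lowest HF + AD mouse at -0.92 stood close. Nr1d2 over Nr1d1 was 3.99 ± 0.23 in AD and 3.16 ± 1.12 in HF + AD, with 6 of 7 HF + AD mice below all AD mice and 1 above them.

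**Figure D4:**
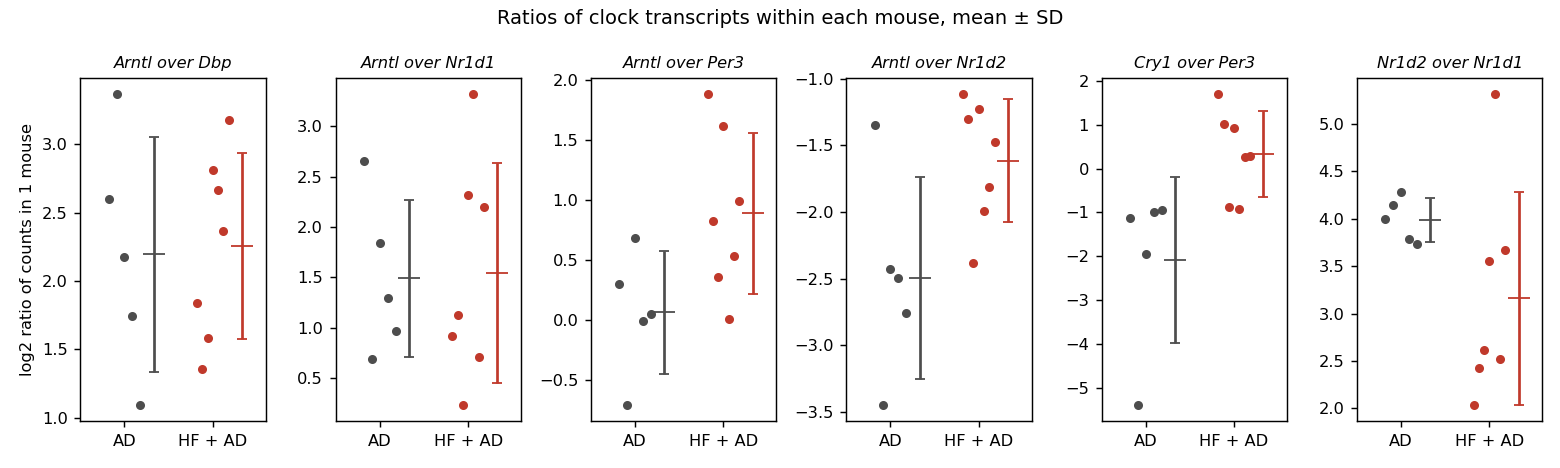
log2 ratio of the counts of a pair of clock transcripts in each AD mouse (grey, n = 5) and HF + AD mouse (red, n = 7), with mean and SD. The AD range of Arntl over Dbp reaches up to AD mouse 2 (3.37), and all 7 HF + AD mice lie within it. Arntl over Nr1d1 lies within its AD range in 5 of 7, with 1 above and 1 below it. Cry1 over Per3, chosen after the values had been seen, lies higher in all 7 HF + AD mice. The lowest HF + AD mouse (-0.92) stands close to the highest AD mouse (-0.95) in that ratio.

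Within the 7 HF + AD mice, Arntl was correlated with each of the 9 other members, to see whether members moved with it when the group played no part. None of the 9 correlations had an adjusted p under 0.05, and 0 of 9 had an unadjusted p under 0.05. The largest in size was with Per2 (Pearson's r = 0.70, permutation p = 0.0568, adjusted p = 0.511, and Spearman's rho = 0.46, permutation p = 0.302), which was 0.44 without the mice farthest from the median of Arntl. With Dbp, r was -0.57 (permutation p = 0.183, adjusted p = 0.549) and rho -0.71 (permutation p = 0.0881), and r was -0.78 without those mice. Leaving them out also moved r with Cry2 from 0.32 to 0.83 and with Nr1d2 from 0.42 to 0.75. For Cry1 it fell from 0.59 to 0.02, and the values without those mice were not tested.

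The genes nearest to Arntl and to Dbp were listed over all 12 mice, after each group's mean was subtracted from log2(CPM + 1), among 13199 genes with a mean count of at least 20. Nearest to Arntl were Krt28 (Pearson's r = 0.82), AW011738 (0.82), Fitm2 (0.81), Donson (0.80) and Ankrd9 (0.80). Nearest to Dbp were 1110008L16Rik (0.94), Nbeal1 (0.93), Zfpl1 (0.93), Maml3 (0.92) and Specc1l (0.91). No member was among either 5. The member nearest to Arntl was Per2, at rank 203 with r = 0.59, and the member nearest to Dbp was Cry1, at rank 599 with r = 0.71. Nr1d2 stood at r = -0.61 and Per3 at r = -0.56 to Dbp. The points share libraries and depth, and no test was made.

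Of 19 further clock genes, 17 were tested, and 2 fell while 0 rose, beside the background of 4.77% lower. Tef, the thyrotroph embryonic factor that binds the same D-boxes as Dbp, lay between 58.2 and 120 CPM in AD and between 24.4 and 62.5 CPM in HF + AD, with 5 of 7 HF + AD mice below all AD mice. Its log2 fold change was -0.83 (SE 0.22, edgeR adjusted p = 0.0291), and it was called in 17 of 21 alternatives, with adjusted p from 0.00782 to 0.0833. The 4 that lost it each left out 1 mouse, which was number 3 or 5 of the AD group or number 2 or 4 of the HF + AD group. Gsk3b, the kinase that phosphorylates several clock proteins, had a log2 fold change of -0.50 (SE 0.15, edgeR adjusted p = 0.0487). It stood at the threshold and was called in 9 of 21 alternatives, with adjusted p from 0.0165 to 0.129. The 12 that lost it were library totals, no filter on low counts and leaving out any single mouse other than AD mouse 1 or HF + AD mouse 5. Of the 17, 5 had an unadjusted p under 0.05, all lower, beside 25.1% of all genes tested in either direction. The median log2 fold change of the 17 was -0.39.

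The other D-box factors did not pass. Hlf, the hepatic leukemia factor, had a log2 fold change of -0.57 (adjusted p = 0.410, edgeR), and Nfil3, the repressor at D-boxes, one of 0.52 (adjusted p = 0.448, edgeR). The ROR receptor genes Rora and Rorb, whose proteins can activate Arntl, were at 0.11 and 0.74, and Rorb had 0 reads in 3 AD mice and 1 HF + AD mouse. Among the genes that degrade or mark the repressors, Btrc, part of a ubiquitin ligase, was at -0.80 (edgeR adjusted p = 0.0557), while the casein kinase genes Csnk1d and Csnk1e were at 0.03 and 0.11. Btrc was called by DESeq2, at a minimum of 10 counts in every mouse and without AD mouse 3.

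Npas2, which can stand in for Clock, had a log2 fold change of -1.62 with an SE of 0.97 on 0 to 76 reads in the libraries (edgeR adjusted p = 0.320), and Arntl2, the relative of Arntl, one of 0.13. The E-box repressors Bhlhe40 and Bhlhe41 were at -0.32 and -0.47, Cipc, a partner of CLOCK, at -0.39, and Timeless at -0.03, none of them past the threshold, though Bhlhe41 passed without HF + AD mouse 5 (edgeR adjusted p = 0.0476). Ciart, at up to 20 reads, and Fbxl21, with 3 reads in 1 HF + AD mouse and 0 in the others, were not tested, and a difference in them was not detectable at this depth.

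Of 5 genes known as outputs of the clock, all tested, 1 fell and 0 rose, beside 4.77% of all genes called lower and 4.43% called higher. Nampt, the rate-limiting enzyme of NAD salvage, lay between 175 and 235 CPM in AD and between 68.9 and 189 CPM in HF + AD, with 6 of 7 HF + AD mice below all AD mice. Its log2 fold change was -0.71 (SE 0.18, edgeR adjusted p = 0.0242), called in 18 of 21 alternatives with adjusted p from 0.00425 to 0.0856. The call was lost when mouse 2 of the AD group (0.059), mouse 2 of the HF + AD group (0.0544) or AD mice 1 and 2 together (0.0856) were left out. Wee1, a kinase that holds back mitosis, was at -0.30, Usp2, a deubiquitinase, at 0.25, Lonrf3 at -0.07 and Tspan4 at -0.22, and none of these 4 passed.

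**Figure D5:**
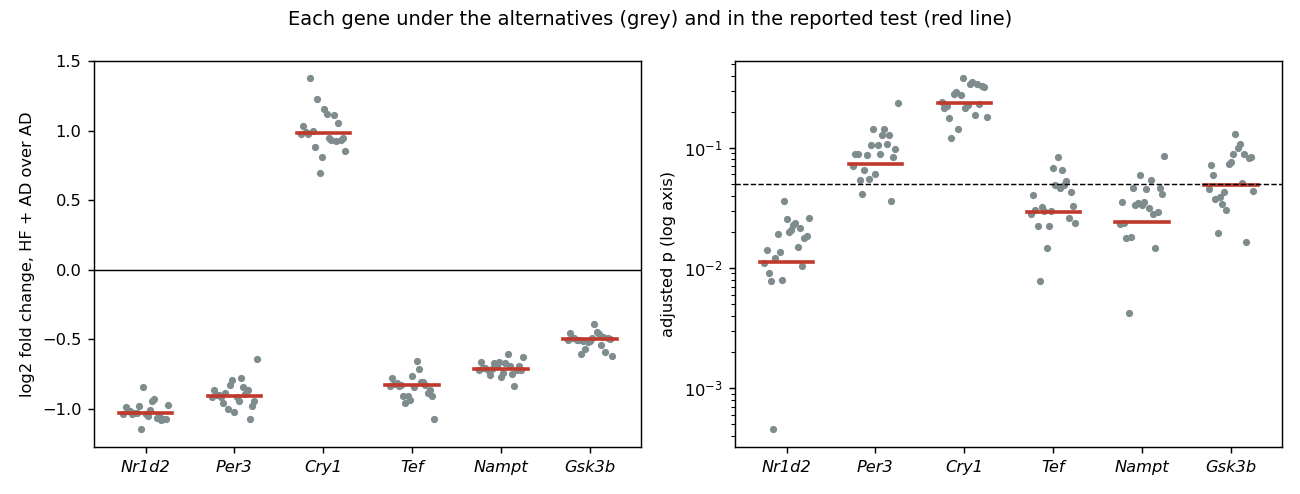
log2 fold change of HF + AD over AD (left) and adjusted p on a log axis (right) for 6 clock genes, in the reported test (red line) and under each alternative (grey points); the dashed line marks 0.05. With the replicate block left out, Nr1d2 stays below it in 21 of 21 alternatives, Gsk3b in 9 of 21, and Cry1 stays above 0 in fold change and above the line.

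Genes that answer to hormones, fasting or stimulation were read from lists of their own. Of 9 genes that glucocorticoids induce and 8 that fasting induces, 0 were called by edgeR. At an unadjusted p under 0.05 the counts were 0 and 2, beside 25.1% of all genes tested. The 2 were Ucp3 (log2 fold change -1.36) and Cpt1a (-0.56), both lower in HF + AD, while 5 of the 8 fasting genes had log2 fold changes above 0. Of 8 immediate early genes, Junb (log2 fold change -0.53) and Ier2 (-0.97) were called lower, beside 4.77% of all genes tested. Log2 fold changes were above 0 for 4 of the 8 and below 0 for 4. Atf3, at 2.73 without passing (edgeR adjusted p = 0.0714), was higher in every HF + AD mouse than in any AD mouse. Groups were apart, in either direction, for 5.45% of all genes tested. Atf3 levels were low, at 0 to 1.345 CPM in AD and 1.876 to 7.775 CPM in HF + AD. The part of any of these lists in the clock values was not tested.

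Some cell type markers differed between the groups as well, where 4.43% of all genes tested were called higher and 4.77% lower. Skin was recognisable by keratins and collagens in every library, with Krt5 between 2232 and 6641 CPM and Col1a1 between 640 and 4688 CPM. Of 7 epidermal keratinocyte markers, Krt5, Krt14 and Krt15 were called higher. Krt1 had a log2 fold change of 0.12, Trp63 of -0.29, Lor of -0.29 and Krt10 of -0.42, none of them called. The summed level, to which Krt5 gave the most, ran from 3376 to 5799 CPM in AD and from 5907 to 10320 CPM in HF + AD. Of 12 hair follicle markers, Krt27, Krt71, Krt31 and Krt34 were called higher, and log2 fold changes were above 0 for 10 and below 0 for 2. Their sums were 8115 to 14100 CPM in AD and 10990 to 15330 CPM in HF + AD. Of 8 skeletal muscle markers, Acta1 and Atp2a1 were called lower, with 7 log2 fold changes below 0 and 1 above. Their sums were 1223 to 2559 CPM in AD and 772 to 1978 CPM in HF + AD. Of 5 endothelial markers, Cdh5 and Kdr were called higher, with 4 log2 fold changes above 0 and 1 below. Their sums were 23.4 to 44.0 CPM in AD and 33.3 to 84.3 CPM in HF + AD. In the adipocyte, fibroblast, macrophage and T cell lists 0 of 6, 0 of 6, 0 of 6 and 0 of 4 tested genes were called by edgeR. At an unadjusted p under 0.05 there were 0, 1, 1 and 1, beside 25.1% of all genes tested. Adipocyte sums ran from 97.5 to 727 CPM in AD and from 71.9 to 554 CPM in HF + AD, fibroblast sums from 3283 to 9883 and from 3292 to 10270, macrophage sums from 35.1 to 190 and from 59.6 to 268, and T cell sums from 6.21 to 24.8 and from 6.44 to 11.7. No list was at 0 in every mouse. Their part in the clock values was not tested.

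Fold changes also moved with base composition over all genes. Of 5 equal bins of genes by transcript GC content, in the lowest 72 were called higher and 206 lower, with a median log2 fold change of -0.09, and in the highest 187 were higher and 57 lower, with a median of 0.18. Nr1d2, with a GC content of 41.8%, belongs to the lowest bin, as does Clock among the members. Of the other called genes, Nampt (40.3%) lies in that bin too, while Gsk3b (46.1%) and Tef (53.15%) lie in higher ones. With each library's trend removed in 20 bins of GC content, an alternative added after the data had been seen, Nr1d2 stayed called at a log2 fold change of -0.98 (edgeR adjusted p = 0.0137), and Per3 did not pass.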

How the data were processed

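RNA of skin from 12 mice (5 AD, 7 HF + AD) was measured by 3′ mRNA sequencing. Raw counts of reads for each gene symbol were deposited by the authors, 1 file per mouse. The submitters' notes name Bowtie2, bedtools and mm10, and versions and the strand setting of counting are not given in the sources used here. Repeated symbols (35) were kept as separate entries. Groups came from the labels.

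Counts were tested with edgeR 4.0.16 in R 4.3.3 (TMM, filterByExpr, quasi-likelihood, group as the only term, Benjamini-Hochberg over 14163 genes, threshold 0.05). Single genes were compared on log2(CPM + 1) with 792 splits in an exact permutation test, two-sided, without adjustment over the 10 members. Alternatives were DESeq2 1.42.0 (size factors or Wald test), limma 3.58.1 (trend or voom with quality weights), library totals, no filter, at least 10 counts in every mouse, the replicate number as a block, a pseudocount of 0.1, a rank statistic and leaving out each mouse; GC correction and leaving out AD mice 1 and 2 were added after the data were seen. The remaining steps ran in Python 3.11.15 (SciPy 1.17.1, NumPy 2.4.6, and matplotlib 3.10.9 for plots). Totals of 9746937 to 13462434 counts set the precision, and since no molecular identifiers are described, limits cover counting error only. Positions came from GENCODE M21 and promoters from RefSeq (GRCm38.p6). The steps were tested on simulated data. The members and all gene lists were chosen with earlier results of these data known. Named are the members, the other clock and output genes, the 5 genes nearest to Arntl and to Dbp, and of the further lists the called genes and some not called. Of the other clock genes, 2 were tested and are in the counts but are not reported here.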

Additional observations from a re-analysis of the deposited data

Results flagged for a closer look

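In 4 of 68 groups of values, a mouse stood apart from the rest of its group by the ratio of its gap to the range, where chance gives about 1 group in 20. Per2 in HF + AD mouse 3 was lowest at 1.96 on the log2(CPM + 1) scale, beside 2.88 for the next mouse. Tef in HF + AD mouse 1 was lowest at 4.67, beside 5.43. Timeless in HF + AD mouse 5 was highest at 6.07, beside 5.51. Fbxl21 in HF + AD mouse 7 was at 0.293, from 3 reads, and at 0 in the other 6.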

How the results depend on the processing

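Over 32 clock and output genes, 632 of 701 fold changes under alternatives kept their direction and side of the threshold, 22 lost and 11 gained the call, and 36 reversed. Replicate numbers gave no sign of pairing in expression. Correlations of deviations lay between -0.08 and 0.04 over 5 pairs, and 0 mice correlated best with their own number. These correlations cannot show whether mice of equal number were sampled or prepared together. With the replicate number as a block, 192 genes in all, 0 members and 1 other clock gene were called, and adjusted p was 0.0514 for Nr1d2, 0.0884 for Gsk3b and 0.0995 for Nampt. Sample quality weights gave 766 genes in all. Of the members, 2 were called by DESeq2's Wald test, and of the other clock genes 5, with 4 at a minimum of 10 counts in every mouse and 1 each under library totals and with no filter. Leaving out a mouse gave 639 (without HF + AD mouse 2) to 1461 genes (without HF + AD mouse 5), 1 to 2 members and 0 to 3 other clock genes.

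Reversed fold changes were, with quality weights, Per1 0.32, Arntl2 -0.030, Bhlhe40 0.048, Csnk1d -0.029 and Tspan4 0.023. Without AD mice 1 and 2 together, added after the data were seen, they were Per1 0.39, Bhlhe40 0.0013, Csnk1d -0.13 and Tspan4 0.30. With limma-trend they were Timeless 0.10 and Lonrf3 0.38, with the block Timeless 0.10 and Lonrf3 0.46, and with the GC correction Csnk1d -0.13 and Csnk1e -0.15. Leaving out each mouse gave Arntl -0.24 to 0.027, Per1 -0.52 to 0.067, Cry2 -0.38 to 0.054, Nr1d1 -0.21 to 0.12, Arntl2 -0.051 to 0.36, Timeless -0.23 to 0.28, Csnk1d -0.074 to 0.11, Csnk1e -0.037 to 0.23, Lonrf3 -0.33 to 0.32 and Tspan4 -0.34 to 0.044. Level differences on log2(CPM + 1) ran from -0.45 to 0.093 for Per1, -0.30 to 0.065 for Cry2 and -0.28 to 0.088 for Nr1d1. None of these genes was called in any of these, and the cause was not tested. Library totals in place of TMM moved the median log2 fold change of all genes from 0.02 to 0.07. Dbp, Cry1, Nr1d1, Npas2, Rorb and Lonrf3 had under 20 reads in some libraries, which limits the precision of their levels there.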
